A study of Mus musculus with 6 samples.

Results

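Glycolysis enzymes and hypoxia response genes were examined in J1 mouse embryonic stem cells that carried a hairpin RNA against Jmjd1c or a control hairpin. The set was a list of 35 genes, and a gene was measured through the probe set, among those annotated to it alone, with the highest mean over all 6 arrays. Of the 35 genes, 33 had such a probe set, out of 18193 genes on the array with 1. Gpi1 and Eno1 had none under this rule and were not analysed here. Gapdh had only the control probe sets of the array, which stayed out of the tests, so 32 genes were tested, all of them above the filter on dim signals described below. The rule for the list used no measured value, but the list was chosen with earlier results of these data known.

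J1 is an established line of undifferentiated stem cells, grown here on gelatin in medium holding 15% fetal bovine serum and leukemia inhibitory factor at 1000 U/ml. Every group, the control included, was infected with pLKO.1 lentivirus and selected from 1 day after infection with 1.5 ug/ml puromycin for 2 days. The survivors were plated again, grown for 4 days and lysed for total RNA. The control group carried shNT (wild type in the labels), and the knockdown groups carried shJmjd1c#3 or shJmjd1c#4, called sh3 and sh4 here. Each group had 2 arrays, which the labels number 1 and 2 and call biological replicates, and no cloning step is named. The arrays read RNA from whole cultures, where fewer cells of a type and less RNA per cell cannot be told apart.

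Glycolysis splits glucose into pyruvate in the cytosol, and lactate dehydrogenase turns pyruvate into lactate so that the pathway can run without oxygen. Embryonic stem cells rely on it heavily even when oxygen is present. When oxygen is low, the prolyl hydroxylases of the Egln family no longer mark the HIF alpha subunits for destruction, and HIF then binds DNA at a short core sequence and raises glycolytic enzymes, glucose transporters and survival genes. Jmjd1c belongs to the same demethylase family as Kdm3a, a known HIF target. Changes in message do not show enzyme activity or flux.

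Values below are deposited array signals on a linear scale, given for replicate 1 and then replicate 2 of a group, and differences are on the log2(signal + 16) scale with the standard error of limma. A gene is called changed at a limma p below 0.05 after Benjamini-Hochberg adjustment over all 12684 genes tested. Signals of different probe sets are not comparable with each other, and the number of arrays limits the precision. Array medians lay between 69.3 and 81.3. The most abundant Jmjd1c probe set read 6060.3 and 5516 in shNT, 4541 and 4984 in sh3, and 3274 and 4215 in sh4, a difference of -0.46 (SE 0.12) that did not pass by itself (adjusted p = 0.171 by limma) and passed with the replicate block described further on (adjusted p = 0.021 by limma). In the fit over all probe sets, without a filter, it passed neither without nor with the block (adjusted p = 0.358 and 0.0745 by limma). There the other 2 Jmjd1c probe sets were higher in the knockdown arrays, at 0.90 (SE 0.15) and 0.73 (SE 0.25). The first of these passed with the block (adjusted p = 0.0127 by limma) and the second did not (0.197). The probe sets disagree in direction, so the groups go by their labels. All 10 embryonic stem cell markers passed the filter. In the knockdown comparison described next 0 of them were called (limma, 4 at an unadjusted p under 0.05). With the replicate block 6 fell, against 2.26% of all genes. The 18S ribosomal RNA control read 8139.7 and 6875 in the controls and between 3712.5 and 6177 in the knockdown arrays. The summed signal of 16 feeder fibroblast markers was 2898 to 3051 in shNT, 3625 to 3721 in sh3 and 4594 to 4597 in sh4, with Fap, Lum, Postn and Col6a1 below the filter. Fstl1, at 1910 and 1685 in shNT, made up most of that sum. Of the 12 tested, all were positive in the knockdown comparison, with a median of 0.71, and 1 rose, Col3a1, a fibrillar collagen chain (log2 2.01, SE 0.30, adjusted p = 0.0336 by limma). With the block 3 rose, Col3a1, Col5a2 and Dcn, against 3.33% of all genes. The sum of 10 primitive endoderm markers was 1327 to 1405 in shNT, 1315 to 1333 in sh3 and 2411 to 2888 in sh4. The ribosomal RNA and the fibroblast sum differed from control with both hairpins and the endoderm sum with sh4, and their part in the differences below was not tested.

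Most promoters of the genes hold letters that HIF recognises, as do the promoters of many other genes. RefSeq windows of 250 bases before a transcript start (GRCm38.p6) were found for 30 of the 32 tested genes, and they were searched on both strands for ACGTG and GCGTG. At least 1 match was present in 34 of 41 windows (82.9%), against 7232 of 13131 windows (55.1%) of all genes tested and 38.6% of all RefSeq windows. Median GC content was 61.6% in the members' windows, 60% in those of all genes tested and 52.4% in all windows. ACGTG also occurs inside the E-box CACGTG, which 5 of the 41 windows held (12.2%), against 8.32% of windows of all genes tested and 6.02% of all RefSeq windows. All 8 hypoxia response genes with a window had a match, as did all 3 carriers and all 4 regulatory kinases with 1. Tpi1 and Eno2 had none. Members that passed as higher in replicate 1, described further on, had a match in 5 of 7 windows (71.4%). Members that did not pass for the replicate number had 1 in 28 of 33 windows (84.8%). The 4 promoters shown belong to Pfkp, the gene called in the knockdown comparison, to Ldhb, and to Bnip3 and Egln3, the genes whose arrays differed most between replicate numbers. Capitals mark the matches, and the reading is 5′ to 3′ on the strand of the gene, minus in each case.
Bnip3, chr7:138909507-138909756: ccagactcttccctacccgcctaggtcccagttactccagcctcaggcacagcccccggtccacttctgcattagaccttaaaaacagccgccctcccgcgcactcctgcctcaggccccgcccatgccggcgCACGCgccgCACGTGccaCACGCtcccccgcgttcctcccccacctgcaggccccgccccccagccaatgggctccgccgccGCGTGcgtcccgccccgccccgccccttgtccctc
Egln3, chr12:54203875-54204124: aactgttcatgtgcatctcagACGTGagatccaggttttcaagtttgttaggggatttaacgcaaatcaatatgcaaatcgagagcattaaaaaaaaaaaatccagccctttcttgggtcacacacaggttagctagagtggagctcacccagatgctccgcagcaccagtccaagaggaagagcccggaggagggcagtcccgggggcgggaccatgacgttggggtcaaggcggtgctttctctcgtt
Ldhb, chr6:142507958-142508207: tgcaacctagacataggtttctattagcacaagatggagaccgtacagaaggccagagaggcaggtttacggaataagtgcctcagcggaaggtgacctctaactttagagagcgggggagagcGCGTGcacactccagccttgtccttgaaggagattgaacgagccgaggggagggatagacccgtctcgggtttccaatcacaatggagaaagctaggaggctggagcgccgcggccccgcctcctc
Pfkp, chr13:6648772-6649021: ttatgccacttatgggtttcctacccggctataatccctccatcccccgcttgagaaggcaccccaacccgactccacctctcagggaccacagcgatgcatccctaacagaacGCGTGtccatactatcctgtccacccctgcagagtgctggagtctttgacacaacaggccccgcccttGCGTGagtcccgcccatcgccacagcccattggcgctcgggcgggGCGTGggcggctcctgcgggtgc
Bnip3 had 5 matches, 2 of them the same CACGTG read on either strand, and Pfkp had 3, the nearest starting 23 bases before the transcript start. Egln3 and Ldhb had 1 each, 229 and 126 bases before the start. A match describes letters in these windows and shows no binding.

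The main comparison asked whether these genes differed between cells with either Jmjd1c hairpin and control cells. Pfkp, the platelet-type phosphofructokinase, fell to 65.8% of its control signal, and it was the only 1 of 32 tested genes to pass. Across all genes 0.725% passed, 0.166% in the lower direction. The list as a whole was centred near 0: the median difference was 0.02, against 0.01 over all genes tested, and 15 of the 32 genes (46.9%) were lower than control, against 48.3% of all genes. The replicate number was also fitted as a block, because same-numbered arrays deviated together across genes. That pairing is an inference from these data, and the labels do not state it. With this block 3 members passed, Pfkp, Ldhb and Hk2, all lower. The share over all genes was 5.6%, with 2.26% in the lower and 3.33% in the higher direction. An unadjusted p under 0.05 was found for 4 members (12.5%), Pfkp, Ldhb, Hk2 and Hk1, against 12.3% of all genes. In the same 4 members all 4 knockdown arrays lay below both controls, a share of 12.5% against 9.54% of all genes. In 0 members did all 4 lie above both controls, while 11.2% of all genes did so. Without the first control array the median of the list was 0.13 and without the second it was -0.15, so its sign rested on single control arrays.

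**Figure D1:**
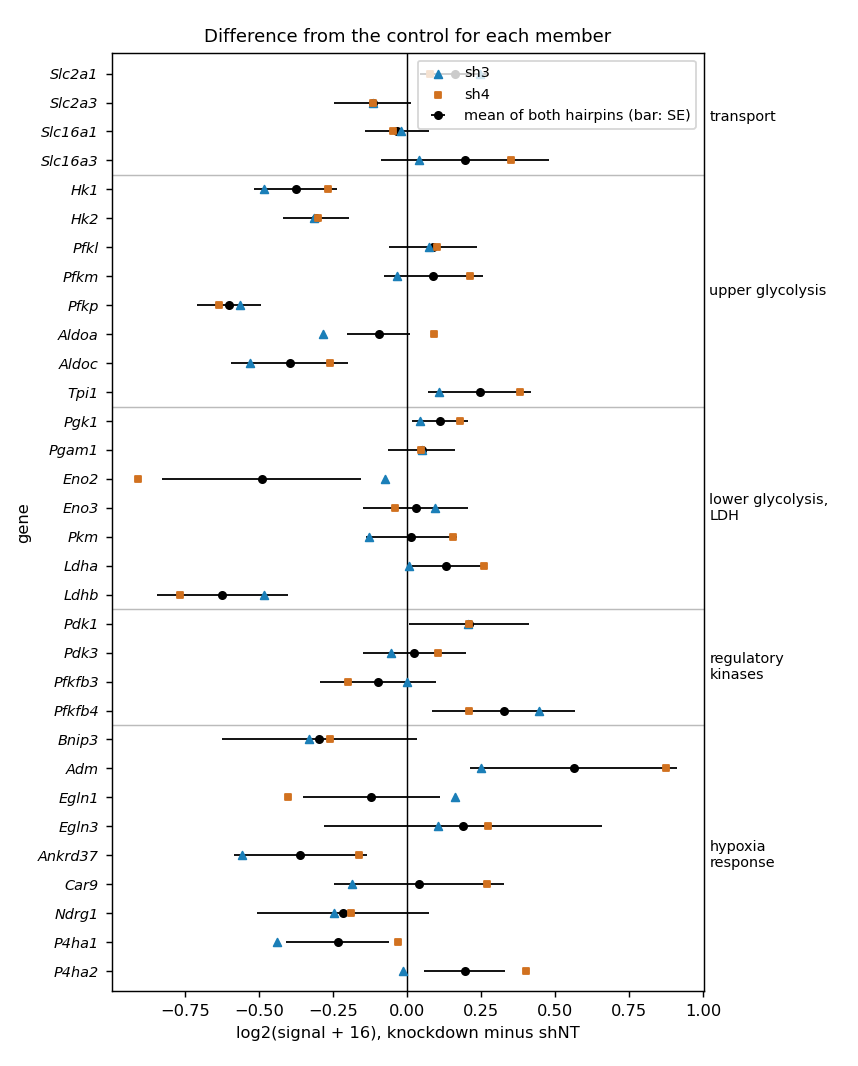
Difference from shNT on the log2(signal + 16) scale for each of the 32 tested genes, grouped by role. Black points are the mean of both hairpins with its standard error, blue triangles sh3 and orange squares sh4. Pfkp, at -0.60, is the only gene past the threshold for the mean of both hairpins, and most other bars cross or come near 0.

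Among the glucose and lactate carriers, 0 of 4 genes passed (limma; 0 also with the block). Slc2a1, the widely expressed glucose transporter GLUT1, read 21359 and 16619 in shNT, 23208 and 21511 in sh3, and 20334 and 19361 in sh4. The knockdown arrays lay within or just above the range of the controls, at 0.16 on the log2 scale with a standard error of 0.12 (adjusted p = 0.647 by limma). Slc2a3, the high-affinity neuronal and embryonic transporter GLUT3, read 19070.5 and 24182 in shNT, 17969 and 21838 in sh3, and 18700.3 and 20977 in sh4. In each group its replicate 2 array was the higher, and the groups overlapped (log2 difference -0.12, adjusted p = 0.795 by limma). Slc16a1, the lactate carrier MCT1, read 8221 and 6747 in shNT and between 7059.9 and 7626 in the knockdown arrays, inside the control range. Slc16a3, the lactate exporter MCT4, was dim and spread most in the control, with 214 and 108 in shNT, 151 and 165 in sh3, and 235 and 169.7 in sh4.

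Of the enzymes from glucose to the triose phosphates, 1 of 8 passed, Pfkp, and 2 with the block, Pfkp and Hk2. Phosphofructokinase commits sugar to glycolysis, and its subunits come from the genes Pfkl, Pfkm and Pfkp. Pfkp read 7257 and 6457 in shNT, 4989 and 4267 in sh3, and 4573 and 4226 in sh4. The 4 knockdown arrays were all well below the lower control, with group means of 6857 ± 566, 4628 ± 510.3 and 4400 ± 246 (4399.5 in sh4; SD, n = 2 each). This is -0.60 on the log2 scale, with a standard error of 0.11 (adjusted p = 0.0485 by limma, and 0.000856 with the block). The difference was the same within each replicate number, -0.60 in number 1 and -0.60 in number 2, values from 1 control and 2 knockdown arrays each and without a test. The adjusted p lay just under the threshold, and the call was lost when any of the 6 arrays was left out (log2 -0.69 to -0.52, adjusted p = 0.096 to 0.171 by limma). With the mean of its 3 probe sets Pfkp was at -0.46 (adjusted p = 0.255 by limma); its other probe sets, fitted over all probe sets, were at -0.35 (SE 0.16) and -0.42 (SE 0.32), also negative. The other phosphofructokinase genes lay on the other side of 0 and did not pass: Pfkl, the liver-type subunit, was at 0.09 (SE 0.15) and Pfkm, the muscle-type subunit, at 0.09 (SE 0.17).

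Hexokinase traps glucose in the cell as its 6-phosphate. Hk2, the inducible isoform and a HIF target, read 7632 and 6213 in shNT, 5629 and 5441 in sh3, and 5892 and 5280.1 in sh4. All 4 knockdown arrays lay below both controls, and the knockdown mean was 80.3% of control. The log2 difference of -0.31 (SE 0.11) did not pass by itself (adjusted p = 0.303 by limma) but passed with the block (adjusted p = 0.0397 by limma). Within number 1 it was -0.41 and within number 2 it was -0.21; without the first control array it was -0.16. Hk1, the constitutive isoform, read 905 and 768 in shNT, 569.99 and 613 in sh3, and 643 and 739.6 in sh4. These arrays also did not overlap, but the difference of -0.38 (SE 0.14) passed neither without the block (adjusted p = 0.314 by limma) nor with it (0.118).

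The aldolases cut fructose bisphosphate, and triose phosphate isomerase interconverts the products. Aldoc, the brain-type aldolase and a HIF target, read 2311 and 1305 in shNT, 1238 and 1157 in sh3, and 1479.7 and 1414 in sh4. One control array stood far above the other 5 arrays, and the difference of -0.40 (SE 0.20) did not pass (adjusted p = 0.466 by limma); within number 1 it was -0.77 and within number 2 it was -0.03. Aldoa, the main aldolase, was at -0.10 (SE 0.11), with 5 probe sets between -0.20 and 0.18. Tpi1 read 10260.3 and 6761 in shNT, 9769.9 and 8246 in sh3, and 12312 and 9550.5 in sh4. The replicate 1 array was the higher in each group, and sh4 lay above shNT at matching numbers. Between sh4 and shNT it differed by 0.38, with an adjusted p of 0.501 by limma and of 0.039 once the block was included, where it counted as a rise. It was 0.68 without the first control array and 0.08 without the second.

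From glyceraldehyde phosphate to lactate, 0 of 7 tested genes passed, and 1 with the block. Ldhb, whose H subunit favours the oxidation of lactate to pyruvate, read 5567 and 8657 in shNT, 4495 and 5475 in sh3, and 3178 and 5219.9 in sh4. All 4 knockdown arrays lay below both controls, although the highest of them was close to the lower control, and in every group the replicate 2 array was the higher. The knockdown mean was 64.6% of control, or -0.63 on the log2 scale with a standard error of 0.22, and it did not pass (adjusted p = 0.299 by limma). With the block the adjusted p by limma was 0.003, and the values within number 1 and number 2 were -0.56 and -0.69. All 4 probe sets of Ldhb were negative, from -0.63 to -0.46, but they belong to 1 gene and are not independent. The difference was -0.33 without the second control array and -0.94 without the first. Ldha, whose M subunit favours lactate production and which is a HIF target, read 14231 and 11254 in shNT, 13316 and 12092 in sh3, and 15792 and 14532 in sh4. The control spread covered sh3, both sh4 arrays lay above the controls, and the difference of 0.13 (SE 0.12) did not pass (adjusted p = 0.725 by limma).

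Pgk1, phosphoglycerate kinase, read 18798 and 16660.2 in shNT, 18112 and 18376 in sh3, and 19679.7 and 20366 in sh4 (log2 difference 0.11, SE 0.09). The other 2 probe sets were at -0.08 and -0.07, so its direction was not settled. Eno2, the neuronal enolase, was near the filter signal of 40.12 with 79.9 and 51.5 in shNT, 79.5 and 45.1 in sh3, and 25.6 and 28.1 in sh4. The sh4 arrays were the lowest, but the difference of -0.49 (SE 0.34) did not pass (adjusted p = 0.623 by limma). Pgam1, phosphoglycerate mutase, Eno3, the muscle enolase, and Pkm, pyruvate kinase, were between 0.01 and 0.05. Gapdh, read through the brightest of its 3 control probe sets, had 17482 and 24844 in shNT, 16857 and 18556 in sh3, and 20555 and 20581 in sh4, with all knockdown arrays but 1 inside the control range. Its untested log2 difference was -0.13, and 0.00 at the other 2 probe sets. The ratio of its 3′ to its 5′ probe set, a measure of RNA integrity, was 1.38 and 1.68 in shNT, 1.3 and 1.47 in sh3, and 1.33 and 1.49 in sh4.

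The regulatory kinases set how pyruvate and fructose phosphates are used, and 0 of 4 passed with or without the block (limma). Pdk1, a pyruvate dehydrogenase kinase and HIF target that keeps pyruvate out of mitochondria, read 9303 and 5923 in shNT, 9904 and 7407 in sh3, and 10056 and 7324 in sh4. The 3 replicate 1 arrays were above the 3 replicate 2 arrays, a gap wider than the 0.21 (SE 0.20) between knockdown and control. Pdk3, a related kinase, read 884 and 688 in shNT, 850.4 and 661 in sh3, and 956 and 736 in sh4, again high in replicate 1, with a knockdown difference of 0.02. Pfkfb3, which makes the phosphofructokinase activator fructose 2,6-bisphosphate, read 412 and 275 in shNT, 330.2 and 343 in sh3, and 294 and 287 in sh4, all knockdown arrays within the control range. Pfkfb4, of the same family, read 112 and 184 in shNT, 206 and 198 in sh3, and 155 and 184 in sh4 (log2 difference 0.33, SE 0.24, adjusted p = 0.655 by limma).

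Of the hypoxia response genes 0 of 9 passed in the knockdown comparison, with or without the block (limma), and 5 of 9 were negative. Adm, the vasodilator peptide adrenomedullin, read 152 and 76.2 in shNT, 172 and 101 in sh3, and 286 and 157 in sh4. Each sh4 array was above the control of its number, but the groups overlapped, and the difference of 0.56 (SE 0.35) did not pass (adjusted p = 0.573 by limma). Ankrd37, an ankyrin repeat protein induced by HIF, read 459 and 281 in shNT, 267 and 213 in sh3, and 338 and 300.2 in sh4, a difference of -0.36 (SE 0.23). Only sh3 lay below both controls. Of the collagen prolyl hydroxylase subunits, P4ha1 read 696 and 515 in shNT, 492 and 389 in sh3, and 599.7 and 570.4 in sh4, while P4ha2 read 578 and 503, 545 and 524, and 707 and 727. P4ha1 was lowest in sh3 (log2 difference -0.44 against shNT, adjusted p = 0.528 by limma) and P4ha2 highest in sh4 (0.40, adjusted p = 0.357 by limma), and neither passed. Bnip3, a mitophagy receptor, Ndrg1, a stress-responsive differentiation gene, Egln1, the main HIF prolyl hydroxylase, and Egln3, a HIF-induced one, were at -0.30, -0.22, -0.12 and 0.19, with standard errors of 0.33, 0.29, 0.23 and 0.47. Car9, carbonic anhydrase 9, stayed close to the filter signal, with 41.3 to 76.7 over the 6 arrays.

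**Figure D2:**
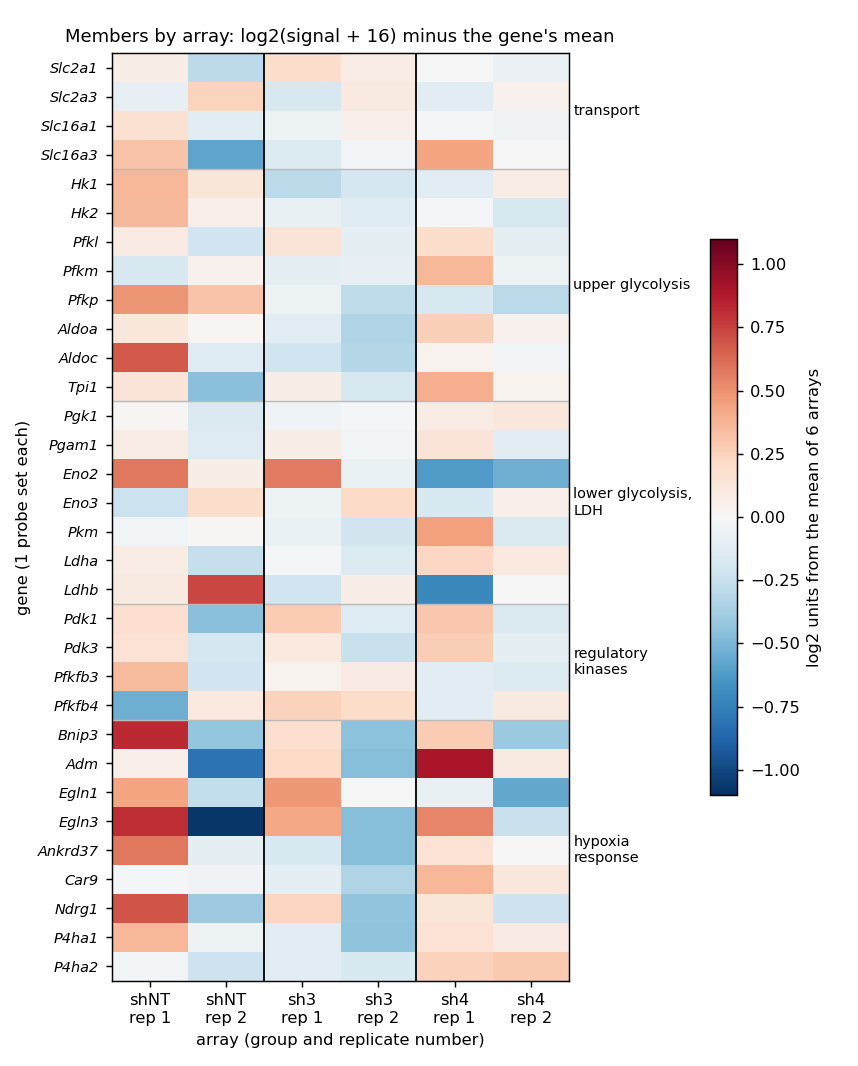
Log2(signal + 16) of the 32 tested genes on each array, minus the mean of the gene over the 6 arrays; red is higher and blue lower, and black lines separate the groups. Pfkp, Hk2 and Hk1 are red in the shNT columns, and Bnip3, Egln3 and Ndrg1 are red in replicate 1 and blue in replicate 2 of each group.

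Taken singly, neither hairpin had a member past the threshold (limma; 5 of 32 members had an unadjusted p under 0.05 for sh3, against 9.74% of all genes, and 5 for sh4, against 12.1%), where 0.071% of all genes passed for sh3 and 0.363% for sh4. With the block 2 members passed for sh3, Pfkp and Ldhb, and 3 for sh4, Pfkp, Ldhb and Tpi1, against 3.43% and 4.9% of all genes. By direction, 1.4% of all genes were lower for sh3, and 2.22% lower and 2.69% higher for sh4; Tpi1 was the higher 1. The hairpins share the control arrays, so their values are set side by side without a correlation. Pfkp was at -0.57 in sh3 and -0.64 in sh4 (adjusted p = 0.162 and 0.0787 by limma, and 0.0043 and 0.00178 with the block). Ldhb was at -0.48 and -0.77 (0.592 and 0.28 by limma, and 0.0337 and 0.00238 with the block), and Hk2 at -0.31 and -0.30. The list median was -0.03 in sh3 and 0.06 in sh4, against 0.01 and 0.02 over all genes. In the test of sh4 minus sh3, 0 of 32 members and 0% of all genes passed (limma; 2 members, Aldoa and P4ha2, and 6.1% of all genes had an unadjusted p under 0.05), and with the block 0 members and 0.418% of genes. Aldoa differed by 0.38 (SE 0.12, adjusted p = 0.698 by limma) and P4ha2 by 0.41 (SE 0.16, adjusted p = 0.783 by limma).

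More members passed for the replicate number than for the knockdown in the same blocked fit, 9 against 3, a comparison added after the values were seen. The labels number the arrays of each group 1 and 2 and do not say what a number shares. In 19 of the 32 genes (59.4%) the replicate 1 array was the higher in all 3 groups, against 24.5% of all genes tested, and in 3 (9.38%), Slc2a3, Ldhb and Eno3, it was the lower in all 3, against 18.8%. The replicate term of the blocked fit passed for 9 members (28.1%), against 4.71% of all genes: 7 were higher in replicate 1 (21.9% against 2.39%) and 2 lower (6.25% against 2.32%). The median of replicate 1 minus replicate 2 was 0.20 over the list and 0.03 over all genes. In 8 members (25%) all 3 replicate 1 arrays lay above all 3 replicate 2 arrays, against 10.2% of all genes, and in 2 below them, against 7.58%. An unadjusted p under 0.05 was found for 21 members (65.6%), against 21.6% of all genes. Without an intensity trend in the fit 0 genes passed, and leaving out probe sets open to cross-hybridization left 24 members, of which 5 passed.

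The hypoxia response genes had a median gap of 0.55, and 5 of 9 passed, Bnip3, Egln3, Ndrg1, Adm and Egln1, all higher in replicate 1. Egln3 read 1587 and 419 in shNT, 1204 and 643 in sh3, and 1306 and 752 in sh4. The 3 replicate 1 arrays lay above the 3 replicate 2 arrays, 3.79-fold in shNT, 1.87-fold in sh3 and 1.74-fold in sh4 (mean log2 gap 1.19, SE 0.18, adjusted p = 0.00491 by limma), and its other probe set was also higher in replicate 1 of each group. Bnip3 read 8589.8 and 3619.9 in shNT, 5512 and 3548 in sh3, and 5907 and 3662 in sh4, so the 3 replicate 2 arrays were nearly level while the control replicate 1 array stood highest. Its gap was 0.86 (SE 0.11, adjusted p = 0.00215 by limma). Ndrg1 read 1950.1 and 911 in shNT, 1418 and 887 in sh3, and 1324 and 1028 in sh4, a gap of 0.70 (SE 0.13, adjusted p = 0.0112 by limma). Egln1 read 1136 and 689.7 in shNT, 1169 and 841 in sh3, and 789.9 and 559 in sh4, higher in replicate 1 of each group, although the first sh4 array lay below the second sh3 array (gap 0.55, SE 0.11, adjusted p = 0.0151 by limma). The gap of Adm was 0.79 (SE 0.19, adjusted p = 0.0402 by limma), close to the threshold. In settings that kept all 6 arrays, Adm lost its call without a filter, with quantile normalization and with the mean of probe sets. The same held without probe sets that may cross-hybridize and without an intensity trend. In these settings its adjusted p was 0.0518 to 0.182 by limma. Ndrg1 lost its call with the mean of probe sets, without probe sets that may cross-hybridize and without the trend. Bnip3, Egln3 and Egln1 lost it only without the trend. Leaving out 1 array took its whole pair out of this term, so the leave-outs repeat each other. With 1 array left out the gap of Adm was 0.75 to 0.84.

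**Figure D3:**
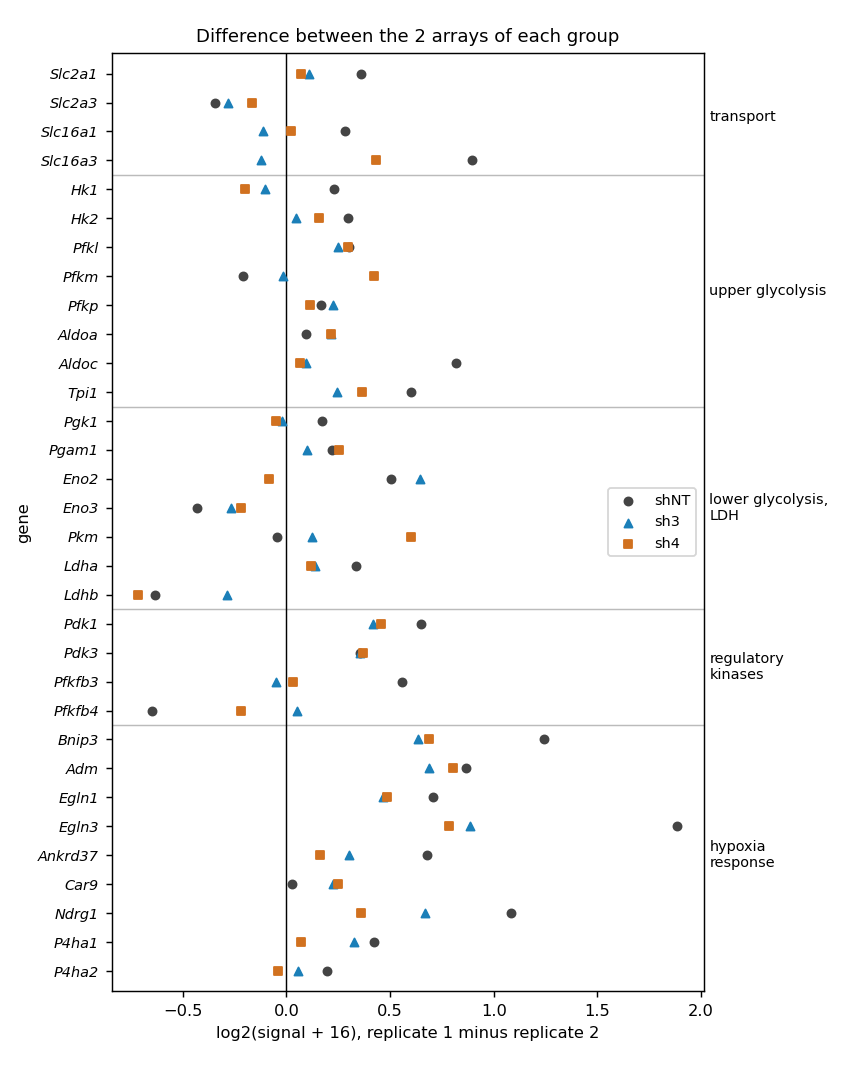
Replicate 1 minus replicate 2 on the log2(signal + 16) scale, in shNT (grey circles), sh3 (blue triangles) and sh4 (orange squares), for each tested gene. All points of the hypoxia response genes lie above 0 except 1 of P4ha2, and the shNT point is the farthest right in 8 of these 9 genes.

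Among the glycolytic members 4 passed for the replicate number. Pdk1 had a gap of 0.51 (SE 0.07, adjusted p = 0.00322 by limma) and Tpi1 of 0.40 (SE 0.08, adjusted p = 0.0125 by limma), both higher in replicate 1. For Pdk1 a second probe set was at 0.33 and a dimmer one at -0.14. Slc2a3 and Ldhb went the other way, at -0.26 (SE 0.06, adjusted p = 0.0278 by limma) and -0.54 (SE 0.09, adjusted p = 0.00667 by limma). The sign of Slc2a3 turned in 2 settings, where its probe sets were averaged (0.12) and where those open to cross-hybridization were left out (0.39). The direction of the other 8 held in every setting in which they were tested, quantile normalization and median centring included. Pfkp, in contrast, had a gap of 0.17 (SE 0.07, adjusted p = 0.183 by limma), smaller than its knockdown difference.

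The gap between numbers was often greatest in the control pair. Replicate 1 minus replicate 2 was greatest in shNT for 20 of the 32 members (62.5%), against 37.7% of all genes, and for 8 of the 9 hypoxia response genes, Car9 being the other. Among these genes, the knockdown difference of Egln3 was at -0.34 within number 1 and 0.71 within number 2, Bnip3 at -0.59 and -0.01, and Ndrg1 at -0.50 and 0.07. Adm was at 0.50 and 0.62 and P4ha2 at 0.10 and 0.29, positive within both numbers. Each such value rests on 1 control and 2 knockdown arrays, and the difference between numbers was not tested. Of the 10 embryonic stem cell markers 5 also passed for the number, all lower in replicate 1, against 2.32% of all genes. They were Tfcp2l1, Esrrb, Nanog, Dppa5a and Zfp42, while Sox2 and Tdgf1 were higher in replicate 1 in all 3 groups without passing. The summed signal of the 10, to which Dppa5a gave the most, was 109176 and 132349 in shNT, 92487 and 99448 in sh3, and 97631 and 105416 in sh4. RNA quality and array level moved with the number too. In replicate 1 of every group the 3′ to 5′ ratio of Gapdh, given above, was the lower, as was that of Actb, at 2.698 and 2.768 in shNT, 2.259 and 2.402 in sh3, and 2.8 and 2.809 in sh4. The median array signal was the higher in replicate 1, at 73.8 and 69.3 in shNT, 76.2 and 72 in sh3, and 81.3 and 75.7 in sh4. The part of these quantities in the gaps was not tested.

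**Figure D4:**
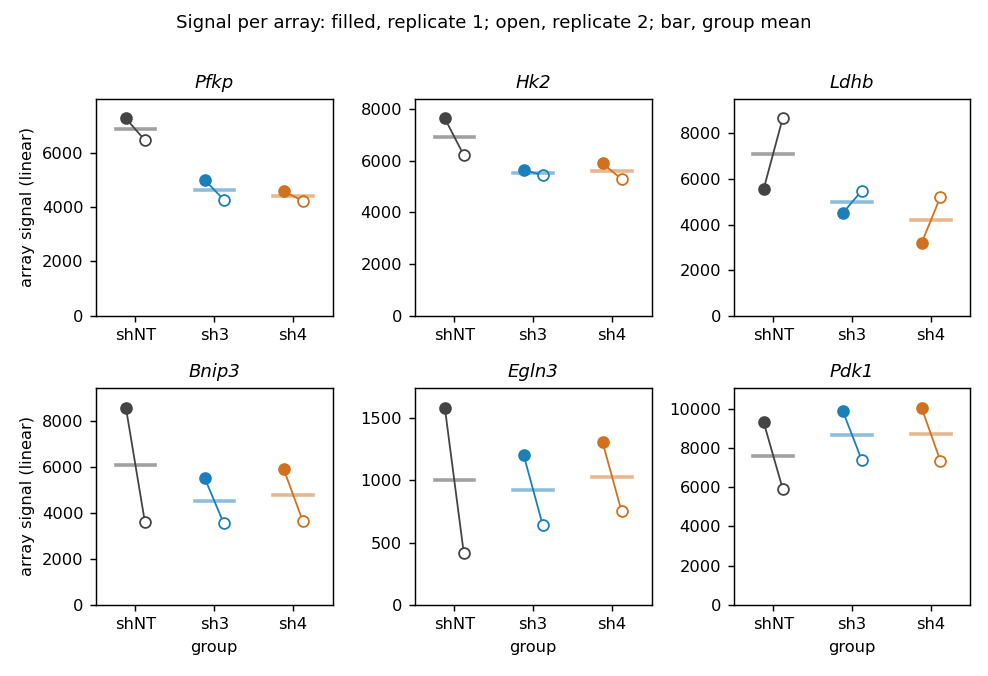
Array signal on a linear scale for Pfkp, Hk2, Ldhb, Bnip3, Egln3 and Pdk1; filled points are replicate 1, open points replicate 2, and bars group means. Pfkp separates the knockdown arrays from the controls, whereas Bnip3, Egln3 and Pdk1 separate the replicate numbers in all 3 groups.

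Related genes were read from lists outside the set. Of 16 subunits and regulators of HIF 0 passed in the knockdown comparison (limma, 2 at an unadjusted p under 0.05). With the block 2 of the 16 rose, against 3.33% of all genes. They were Cited2, a competitor of HIF for its coactivator (log2 0.39, adjusted p = 0.217 without and 0.0306 with the block by limma), and Epas1, the HIF-2 alpha subunit (0.50, adjusted p = 0.314 and 0.0105 by limma). Epas1 read 1663 and 1339 in shNT, 1889 and 1359 in sh3, and 3357 and 2323 in sh4, so both sh4 arrays stood above the rest. Egln2, another prolyl hydroxylase, was at -0.31. Hif1a, the HIF-1 alpha subunit, was at 0.00 (SE 0.10) with a replicate gap of -0.04, and neither passed. For the replicate number 1 of the 16 passed, against 4.71% of all genes. It was Epas1, with a gap of 0.44 (SE 0.09, adjusted p = 0.0176 by limma). The gap was positive in 7 of the 16, with a median of -0.07. Of 18 further hypoxia targets tested, 0 passed in the knockdown comparison with or without the block (limma; 2 at an unadjusted p under 0.05), among them Higd1a (0.27), Kdm3a (-0.27) and Kdm4b (0.40). For the replicate number 3 of the 18 passed, 2 higher and 1 lower in replicate 1, against 2.39% and 2.32% of all genes. The gap was positive in 14 of the 18, with a median of 0.22. It was greatest in shNT for 15 of these 18 and for 5 of the 16 subunits and regulators, against 37.7% of all genes. Ddit4, an inhibitor of mTOR signalling, read 4762 and 1480.1 in shNT, 3894 and 1876 in sh3, and 3675 and 1398 in sh4, a gap of 1.37 (SE 0.11, adjusted p = 0.000344 by limma), and Stc2, a secreted stress glycoprotein, had a gap of 0.92. Hmox1, heme oxygenase, was lower in replicate 1, at -0.69. Vegfa, the angiogenic growth factor, did not pass at 0.24.

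In lists for other routes of glucose carbon, 0 genes passed in the knockdown comparison (limma; at an unadjusted p under 0.05, 0 of the first 2 lists, 2 of the citric acid cycle list and 1 of the respiratory list). Of 11 tested isoforms of glycolytic enzymes and carriers outside the set 0 passed, with a median of -0.27 and with Adpgk, Pdk4 and Hk3 at -0.42, -0.38 and -0.56. Of 7 pentose phosphate genes 0 passed, the nearest being Taldo1, Rpia and Pgd at -0.13, -0.17 and 0.12. Of 23 genes of pyruvate dehydrogenase and the citric acid cycle 0 passed and 19 were negative, with a median of -0.06. Pdha1, the catalytic subunit that the Pdk kinases phosphorylate, read 5357 and 6495 in shNT, 4373 and 5481 in sh3, and 3214 and 4362 in sh4, and it fell with the block only (log2 -0.46, adjusted p = 0.271 without and 0.00547 with it by limma). Pdha1 was the only 1 of the 23 to pass with the block, where 2.26% of all genes were lower. Cs, citrate synthase, was at -0.28, and Suclg2, a succinyl-CoA ligase subunit, at 0.21. Of 15 respiratory chain genes 0 passed, and Cycs, cytochrome c, rose with the block (log2 0.28, adjusted p = 0.275 without and 0.0285 with it by limma). Cycs was the only 1 of the 15 to pass with the block, where 3.33% of all genes were higher. Ndufs1 and Ndufv1 of complex I were at -0.20 and -0.15.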

How the data were processed

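Each of the 6 Affymetrix mouse genome arrays gave 1 column of intensity values, which the authors deposited as linear signals; MAS5 is the tool that the submitters' processing notes list, with the version not given in the sources used here. Every array's trimmed mean (middle 96% of values) came to 499.8, so arrays were already on a common scale. Of 45101 probe sets, 34945 carried a single gene symbol and could name a gene, 932 carried several, 9160 carried none and 64 were controls; Entrez IDs tied 34741 to RefSeq genes.

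Differences were computed on log2(signal + 16) after keeping, per gene, its brightest probe set and dropping genes under a signal of 40.12, the 40th percentile. Limma 3.58.1 (R 4.3.3) was fitted to 3 group means with an intensity trend, 2-sided, with Benjamini-Hochberg adjustment. Whether replicates came from separate cultures is known only from the word biological in the labels, so p-values measure the spread between these arrays. Same-numbered arrays deviated together (correlations across genes of 0.302, 0.223 and 0.3), so the numbers were taken to pair the arrays, an inference from the same data. The members, lists and tests were chosen with earlier results of these data known. Array values are given for members past the threshold in any comparison and the 4 with the smallest p per role; other lists name up to 3 genes by p. Egln3, Bnip3, Ndrg1, Egln1, Car9, Hif1a, Ddit4, Stc2, Hmox1 and Vegfa were chosen after their values were seen. Tested on simulated data, the knockdown comparison over 12684 genes recovered 32.2% of genes changed 1.5-fold and 72.8% of those changed 2-fold. Of its calls 7.79% were false, above the nominal 5%. The simulated noise was independent between arrays, without the shared deviation of same-numbered arrays seen here, so these shares may differ in the real data. Alternatives covered the pseudocount, filter, normalization, probe set choice, trend, replicate block and each array left out.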

Additional observations from a re-analysis of the deposited data

Results flagged for a closer look

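Car9, carbonic anhydrase 9, was picked out because both sh3 arrays (51.1 and 41.3) lay below both controls (55.3 and 54.0) and both sh4 arrays (76.7 and 62.0) above them. The difference sh4 minus sh3 was 0.46 on the log2 scale (SE 0.33, adjusted p = 0.868 by limma), and all 6 signals were near the filter signal of 40.12.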

How the results depend on the processing

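In the knockdown comparison the 1 member past the threshold (Pfkp) became 0 with a pseudocount of 1, without a filter, with quantile normalization, with the mean of probe sets, without probe sets that may cross-hybridize and without an intensity trend, 3 with the replicate block, and 0 (lowest and highest) without each array in turn. It stayed 1 with median centring, with a filter at the 60th percentile and with a pseudocount of 64. Pfkp itself lay between -0.68 and -0.46 over the 10 settings other than leaving out arrays. For sh3 the count of 0 became 2 with the replicate block, and for sh4 it became 3 with the block and 1 with median centring; without each array both stayed at 0. The block changed no other member's call. The list median ranged without each array from -0.15 to 0.13 in the knockdown mean, -0.20 to 0.12 in sh3 and -0.10 to 0.17 in sh4. Members past the threshold for the replicate number, 9, became 5 without probe sets that may cross-hybridize and 0 without an intensity trend. They became 6 with the mean of probe sets, Aldoc among them, and 7 without a filter. With quantile normalization they became 11, which included Slc2a1, Aldoa, Pgam1 and Ldha but not Slc2a3 or Adm. Without each array the median gap of the list was 0.19 to 0.24. Over the whole array 92 genes passed for the knockdown mean, from 0 (no trend) to 710 (replicate block), and 4 to 48 without each array; for sh3 they ranged from 0 to 435 and for sh4 from 6 to 622 over the same settings. Dim genes such as Eno2 and Car9 carry little information on fold change.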
